A study of Mus musculus with 16 samples.

Results

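Tcf7 CD8 cells are CD8 T cells that carry transcripts of Tcf7 and none of the inhibitory receptors PD-1, LAG-3 and TIM-3, a combination found in naive and memory T cells. They were picked out barcode by barcode in single-cell RNA sequencing of CD45+ cells sorted from MC38 or Panc02-SIY tumors. A barcode was a member when it had at least 500 genes, at most 10% mitochondrial UMIs (unique molecular identifiers, the counted transcripts), at least 2 UMIs of Cd3d, Cd3e and Cd3g together, at least 1 of Cd8a and Cd8b1, none of Cd4, at least 1 of Tcf7, none of Pdcd1, Lag3 and Havcr2, and at most 1 of the cycling genes Mki67 and Top2a. Of 28678 barcodes in 16 libraries, 22305 passed the filter on genes and mitochondrial UMIs, 16350 were left once each barcode sequence was kept in only 1 library of its tumor line, and 272 were members. Panc02-SIY tumors held 265 of them and MC38 tumors 7.

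The 4 groups of 4 libraries came from tumors of either line, left untreated or taken 24 hours after a single dose of 12 Gy. MC38 cells derive from a colorectal carcinoma. Panc02-SIY cells derive from a pancreatic adenocarcinoma and carry SIY, a model antigen for CD8 T cells. Both grew under the skin of wild-type C57BL/6J mice of 6 to 8 weeks. The series text gives 4 animals a group and the study's methods give 3, so if libraries shared an animal the p-values below are too small.

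TCF-1, the product of Tcf7, is a transcription factor that keeps T cells able to renew themselves and to recirculate, and its level falls as CD8 T cells become terminal effectors or exhausted cells. Naive cells carry CCR7 for entry into lymph nodes, and S1pr1, kept on by the factor KLF2, for leaving them. Central memory cells share this equipment but also carry effector transcripts such as Ccl5. Resident memory cells in tissue lose S1pr1 and gain integrins such as CD49a (Itga1). Lymphocytes are among the most radiosensitive cells, and p53, stabilized by DNA damage, is the factor through which most of their transcriptional response runs.

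The MC38 libraries stood apart before any result. Of 1596 barcode sequences that passed the filter in MC38 libraries, 1005 occurred in more than 1 library and 613 in all 8, against 63 and 15 of 14754 in Panc02-SIY libraries. Keeping each sequence where it had the most UMIs left 7 of 10 MC38 members and 265 of 266 Panc02-SIY members. Untreated MC38 replicates 1 to 4 held 1, 0, 1 and 0 members, and irradiated replicates 1 to 4 held 1, 0, 2 and 2. No MC38 library reached the 10 cells required for a sum of counts, so expression was compared in Panc02-SIY tumors only. Among the 7 MC38 members, 2 had a UMI of S1pr1, 7 of Klf2, 7 of Ly6c2, 5 of Ccl5 and 3 of Klra7. The macrophage genes Apoe, C1qa and Lyz2 had a UMI in 7, 3 and 3 of them. Each of the 7 carried at least 2 UMIs of macrophage, neutrophil or B cell markers.

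Untreated Panc02-SIY replicates 1 to 4 held 18, 35, 38 and 28 members, and irradiated replicates 1 to 4 held 24, 42, 34 and 46. Their median depth was 8005, 6756, 6451 and 8982.5 UMIs in the untreated and 6016.5, 5955.5, 4969 and 5283.5 in the irradiated libraries, so members were shallower in each irradiated library than in every untreated one. In sum, a library gave between 135157 and 274452 member UMIs. These totals set the precision of what follows, and 3 UMIs over all members correspond to 1.69 CPM (counts per 1000000 UMIs). Whole libraries held 5327146 to 43776342 UMIs in Panc02-SIY and 3240877 to 10121198 in MC38.

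The gate was not sharp at its edges. Exactly 1 Tcf7 UMI was found in 87 of the 265 Panc02-SIY members, 2 in 77 and 3 or more in 101. A UMI of Tcf7 was found in 689 (12.4%) of the Panc02-SIY CD8 T cells, and 372 of these also had one of an inhibitory receptor. Just outside, 72 CD8 T cells with Tcf7 had a single UMI of the 3 inhibitory receptors, 52 without these receptors had more cycling UMIs than allowed, and 249 CD8 T cells had neither Tcf7 nor the receptors, at a median depth of 4926 UMIs. Members had a median of 11 UMIs of the CD3 genes and 5 of the CD8 genes. The comparison population, called here inhibitory-receptor CD8 cells, met the same T cell, Cd4 and cycling conditions but had at least 1 UMI of Pdcd1, Lag3 or Havcr2. It held 3655 cells of the same 8 libraries, 65.8% of the 5556 CD8 T cells against 4.77% for the members, at a median of 7242 UMIs against 6208. Tcf7 itself had a UMI in 6.76% of the inhibitory-receptor cells, so the members are not all CD8 T cells with Tcf7.

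The markers of recirculating T cells were present, while those of naive cells were outweighed in summed UMIs by those of memory cells. S1pr1, the receptor that draws T cells out of tissue, had a UMI in 72.1% of members and 8.18% of inhibitory-receptor CD8 cells. In macrophages of the same libraries, which should lack the gene and were taken as 2044 barcodes with at least 5 C1q UMIs and no CD3 UMI, the share was 0.881% at a median of 6850.5 UMIs. The naive T cell factor Lef1 was seen in 39.6% of members, 6.92% of inhibitory-receptor cells and 0.881% of macrophages, and Ccr7 in 22.3%, 3.06% and 0.978%. Effector and memory transcripts varied in frequency. Ccl5 had a UMI in 86.4% of members, 88.4% of inhibitory-receptor cells and 31.7% of macrophages. For the memory marker Ly6c2 these shares were 82.3%, 46.2% and 9.88%, and for Cd44 59.6%, 68.7% and 58.7%. In members and inhibitory-receptor cells, Cxcr3 was seen in 36.6% and 27.8%, Eomes in 25.3% and 6.70% and Gzmk in 10.9% and 31.6%.

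The balance of these transcripts was scored by comparing the UMIs of 5 naive genes, such as Ccr7 and Lef1, with those of 6 memory genes, such as Ccl5 and Cd44, in each cell. Members had a median of 2 naive and 37 memory UMIs, and memory UMIs led in 247 of 265 cells. Ccl5 gave 65.0% of the memory UMIs and was also seen in 31.7% of macrophages. With Ccl5 left out, a choice made after seeing the data, the median was 15 memory UMIs, and memory UMIs led in 242 cells and naive UMIs in 20. Naive UMIs led in 18 cells, with 1 of the 265 lying within 2 UMIs of the border, and 81 cells had no naive UMI at all. Untreated replicates 1 to 4 held 1, 0, 5 and 0 naive-leaning cells and irradiated replicates 4, 1, 6 and 1. The naive-leaning share was 4.68% ± 6.23 (SD, n = 4) without radiation and 9.72% ± 8.60 (n = 4) with it, a difference that did not pass (exact permutation test over libraries, two-sided p = 0.286, adjusted p = 0.343 over 6 share comparisons). By these markers the cells are described below as Tcf7 CD8 cells rather than as naive.

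Transcripts of other cell types were also counted. At least 2 UMIs of macrophage, neutrophil or B cell markers were found in 148 of the 265 cells, and results are given below without them where a count moved. The defining B cell gene Cd79a, the thymocyte gene Rag1 and all 6 erythroid genes had no UMI in Panc02-SIY members, Foxp3 was seen in 1 cell, Ncr1 of NK cells in 12 and the gamma delta constant gene Trdc in 14, while the alpha chain gene Trac was seen in 222. Other genes of these lists were less rare, with the gamma chain genes Tcrg-C2 in 53 cells, Tcrg-C4 in 44 and Tcrg-C1 in 30, and Klrb1c, Tyrobp and Fcer1g of the NK cell list in 48, 91 and 131. The 14 macrophage and monocyte markers summed to 2540 CPM in members and 1400 in inhibitory-receptor cells, a list led by Ly6c2, which T cells also express. The NK cell list summed to 1490 CPM against 2316, the B cell list, led by Cd74, to 829 against 967, and the dendritic cell list to 314 against 343. The CD4 and regulatory T cell list stood at 208 against 922 CPM, the gamma delta list at 171 against 75.0, the NKT or MAIT list at 156 against 105, the tumor and stromal list at 44.5 against 37.3 and the thymocyte list at 11.8 against 12.3. The list of CD8 T cells themselves, which holds genes of the gate, summed to 4657 CPM in members against 8136. Neutrophil transcripts were uneven. The 8 neutrophil markers summed to 81.4, 53.8, 25.5 and 20.4 CPM in untreated replicates 1 to 4, and to 3413, 92.6, 2639 and 33.7 CPM in irradiated replicates 1 to 4. S100a8, the most abundant of them, gave 287 of its 583 UMIs in irradiated replicate 1 and 278 in irradiated replicate 3. Members with 2 or more UMIs of S100a8 and S100a9 numbered 8.

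The first question was how common these cells were. Tcf7 CD8 cells made up 2.10%, 2.10%, 2.79% and 0.801% of the filtered barcodes of untreated Panc02-SIY replicates 1 to 4, and 2.98%, 2.32%, 1.66% and 1.70% of irradiated ones. The groups overlapped, with means of 1.95% ± 0.832 (SD, n = 4) and 2.16% ± 0.620 (n = 4) and an exact permutation p of 0.771 (adjusted 0.771). In MC38 tumors the mean shares were 0.268% ± 0.315 (n = 4) untreated and 0.693% ± 0.563 (n = 4) irradiated (exact permutation p = 0.286, adjusted 0.343). Both Panc02-SIY groups lay wholly above the MC38 group of the same treatment, with MC38 minus Panc02-SIY at -1.68 points without and -1.47 points with radiation, each at the exact permutation p of 0.0286 that is the smallest 4 against 4 libraries can give (adjusted 0.0857). Both differences no longer passed once cells were thinned to 2000 UMIs (-1.33 and -1.06 points). The untreated one also no longer passed without any 1 of the 4 untreated MC38 libraries, nor the irradiated one without irradiated Panc02-SIY replicate 1 or 2 (adjusted p = 0.171, exact permutation test). The differences themselves stayed at -1.79 to -1.59 points in the former fits and at -1.20 and -1.42 in the latter, with fewer libraries to test. Both passed with shared barcodes kept in every library (-1.80 and -2.01 points). Both also passed with cells carrying UMIs of other cell types taken out of the members (-0.675 and -1.13 points), which left no MC38 member. All filtered barcodes stayed in that denominator.

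Among CD8 T cells, the share of Tcf7 CD8 cells was 5.77%, 4.37%, 6.17% and 1.81% in untreated Panc02-SIY replicates 1 to 4 and 18.9%, 6.52%, 5.84% and 4.96% in irradiated ones. Irradiated replicate 1 stood far above all other libraries. CD8 T cells as a whole were 15.8% of its barcodes, against 28.4% to 35.6% in the other irradiated and 36.4% to 48.0% in the untreated libraries. The difference between the means of 4.53% ± 1.97 (SD, n = 4) and 9.06% ± 6.59 (n = 4) did not pass the exact permutation test (p = 0.171, adjusted 0.343), and without irradiated replicate 1 the difference of 4.53 points became 1.25. With the cells carrying UMIs of other cell types taken out of the members only, the difference was 3.07 points and passed (adjusted p = 0.0571, exact permutation test). All CD8 T cells stayed in the denominator, so this was not a share among CD8 T cells without those cells. The cells taken out were 10, 25, 26 and 18 members of untreated and 12, 19, 16 and 22 of irradiated replicates 1 to 4. After thinning to 2000 UMIs the difference was 1.39 points and did not pass (adjusted p = 0.789, exact permutation test). In MC38 tumors CD8 T cells were a mean 2.57% of barcodes without and 4.60% with radiation, against 43.5% and 28.5% in Panc02-SIY. Pooled MC38 counts gave 2 of 21 CD8 T cells without radiation (9.52%, exact 95% interval 1.17% to 30.4%) and 5 of 35 with it (14.3%, 4.81% to 30.3%), intervals that cover counting error only and overlap each other. Pooled Panc02-SIY counts gave 119 of 3276 (3.63%, 3.02% to 4.33%) and 146 of 2280 (5.43% to 7.49%), shares below the MC38 ones, so the order of the tumors among CD8 T cells was the opposite of that among all barcodes, on few MC38 cells and with no test.

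**Figure D1:**
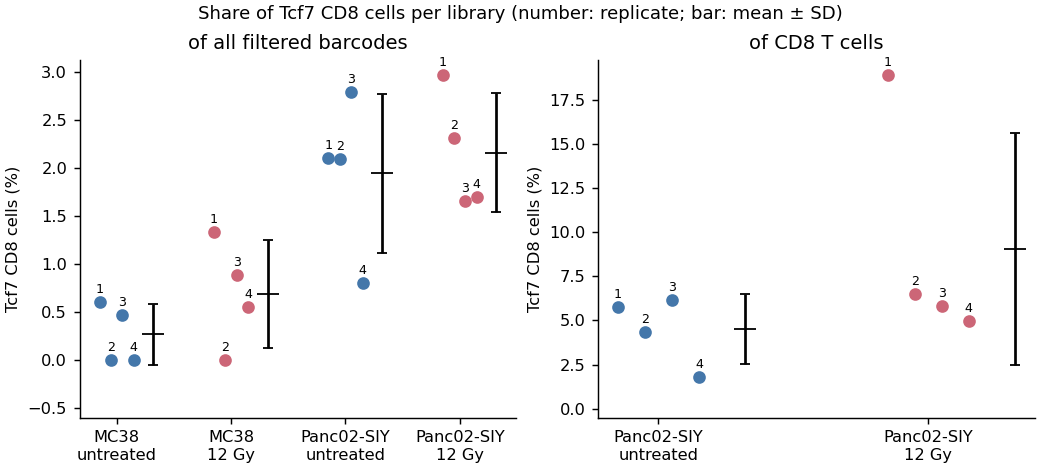
Share of Tcf7 CD8 cells per library, in percent of all filtered barcodes for the 4 groups (left) and of CD8 T cells for the Panc02-SIY groups (right), with the replicate number above each point and the mean ± SD of 4 libraries beside it. The Panc02-SIY libraries lie above the MC38 libraries of the same treatment, and irradiated Panc02-SIY replicate 1 stands apart at 18.9% of CD8 T cells.

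The second question was what else set these cells apart from the inhibitory-receptor CD8 cells of the same tumors. UMI counts were summed per library and population and compared over the 8 Panc02-SIY libraries with the library as a block, in edgeR's quasi-likelihood test with Benjamini-Hochberg adjustment. Calls required an adjusted p under 0.1 together with more than a 1.3-fold change. Levels are CPM after TMM scaling, which sets libraries to a common composition. The genes of the gate define the difference and are left out, and because both populations were drawn by a few of their own transcripts, the rest of the comparison describes what travels with the gate. Of 9929 genes, 830 (8.36%) were called higher and 1153 (11.6%) lower in Tcf7 CD8 cells. In all 8 libraries alike, 4.03% of genes were higher and 8.49% lower, and 310 (3.12%) and 706 (7.11%) were called as well.

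Genes of naive and recirculating T cells were mostly higher. Of 28 tested besides S1pr1, which helped to name the cells, 22 rose and 1, the costimulatory receptor Cd27, fell, with a median log2 difference of 1.55 against -0.04 over all genes. Among all genes 8.36% were called higher and 11.6% lower. Klf2, the factor that keeps S1pr1 on, ranged from 328 to 1063 CPM (median 581) in Tcf7 CD8 cells and from 43.2 to 182 (median 102) in inhibitory-receptor cells, so no library of either population overlapped the other. The log2 difference was 2.65 ± 0.12 (SE, adjusted p = 9.75e-18), higher in 8 of 8 libraries. Lef1, which acts beside TCF-1, stood at 77.3 to 173 CPM against 6.76 to 17.2 (log2 3.18 ± 0.20, adjusted p = 2.69e-33).

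The lymph node homing receptor Ccr7 was more uneven. It ranged from 31.6 to 401 CPM (median 77.7) in Tcf7 CD8 cells against 3.38 to 15.9, so its highest library was far above its median although no library overlapped (log2 3.32 ± 0.38, adjusted p = 3.53e-05). S1pr1 helped to name these cells, so its level is a description only, at 209 to 451 CPM against 8.14 to 54.7. Further rises were seen in Treml2 (log2 4.62 ± 0.39), Nsg2 (3.62 ± 0.23), the inhibitor of effector fate Id3 (2.64 ± 0.40) and the survival gene Bcl2 (0.88 ± 0.08, 726 to 1223 CPM against 361 to 832). The marrow homing receptor Cxcr4 rose as well, at 158 to 417 CPM against 12.4 to 37.1. Outside the lists, Tmem108 (5.54 ± 0.54), Klf3 (3.82 ± 0.16), another factor of the KLF family, and Espn (3.73 ± 0.79) were among the largest rises, Espn on 13 UMIs.

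**Figure D2:**
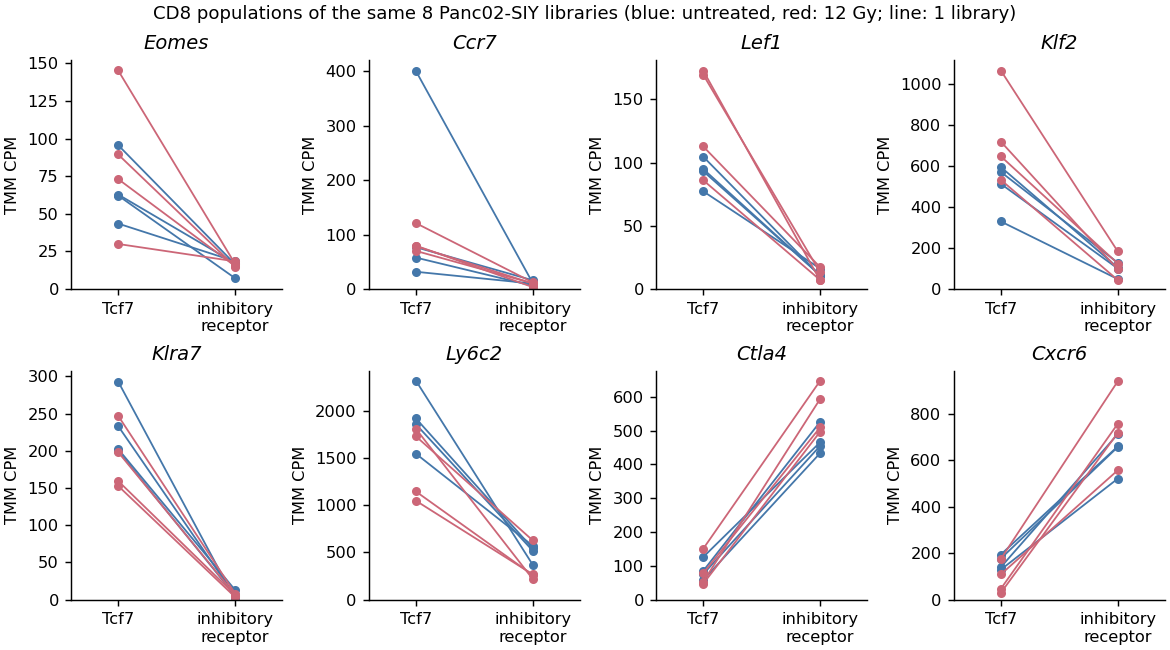
Levels of 8 genes in TMM CPM in Tcf7 CD8 cells (left of each panel) and inhibitory-receptor CD8 cells (right) of the same Panc02-SIY libraries, each line 1 library. Eomes, Ccr7, Lef1, Klf2, Klra7 and Ly6c2 were higher and Ctla4 and Cxcr6 lower in Tcf7 CD8 cells in 8 of 8 libraries.

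Memory and effector genes split. Of 40 tested, 27 were lower and 6 higher in Tcf7 CD8 cells, against 11.6% and 8.36% of all genes, with a median of -0.60. Lower were the chemokines Ccl3 (log2 -4.30 ± 0.17, 6.98 to 74.8 CPM against 421 to 1424) and Ccl4 (-3.60 ± 0.29) and the killing genes Prf1, which encodes perforin (-2.39 ± 0.13), and Gzmb (-1.42 ± 0.15). The cytokine gene Ifng was lower by the same test (-2.19 ± 0.13), and so was Gzmk (-1.73 ± 0.26). Higher were Eomes, a factor of memory CD8 cells, at 29.9 to 145 CPM against 7.15 to 18.4 (2.24 ± 0.22, adjusted p = 4.86e-16), and Ly6c2, at 1050 to 2326 CPM against 217 to 628 (2.06 ± 0.21, adjusted p = 0.000205). Cxcr3, the receptor for interferon-induced chemokines, was higher by 0.69 ± 0.17, in 7 of 8 libraries, a call lost after thinning to 2000 UMIs and without the cells carrying UMIs of other cell types. Itgb1 (0.77 ± 0.10), Gzmm (1.62 ± 0.51) and Klrg1 (1.76 ± 0.71) were higher too, the last in 5 of 8 libraries and on 12 UMIs. Ccl5 (-0.51 ± 0.18, adjusted p = 0.0988) and Cd44 (-0.44 ± 0.11) were lower, but the Ccl5 call was kept in 2 of 8 fits without a library and 4 of 11 other alternatives, and the Cd44 call was lost with RLE size factors, DESeq2, a minimum count of 10 and without the cells carrying UMIs of other cell types. The IL-7 receptor Il7r was not called (0.26 ± 0.12).

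Exhaustion and activation genes outside the gate were lower in 21 of 29 and higher in 3, against 11.6% and 8.36% of all genes. Their median was -1.50. Rgs16 stood at 3.74 to 19.9 CPM in Tcf7 CD8 cells against 277 to 540 in inhibitory-receptor cells (log2 -5.33 ± 0.19, adjusted p = 1.59e-59). The checkpoint receptor Ctla4 stood at 46.5 to 150 CPM against 433 to 647 (-2.66 ± 0.12), the costimulatory receptor Tnfrsf9 was lower by 3.12 on the log2 scale, and Tox, the factor that fixes exhaustion, stood at 23.7 to 120 CPM against 162 to 372 (-2.08 ± 0.18). Tigit had 1 UMI over all Tcf7 CD8 cells. The adhesion receptor gene Adgrg1 had none in any of the 8 libraries against 32.8 to 58.8 CPM, and set against a floor of 3 UMIs over all members it was at least 24.7-fold lower. Most of the other largest fitted falls, such as Synpo and Adora3, were likewise genes with no UMI in Tcf7 CD8 cells. The 3 higher members were Myc, Cd69 and Ikzf2, which encodes the factor Helios.

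Interferon-stimulated genes leaned upward in Tcf7 CD8 cells, with 21 of 58 higher, 3 lower and a median of 0.36. Oas3 was higher, at 26.6 to 77.8 CPM against 7.99 to 28.4, and Oasl2 (log2 1.98 ± 0.39) and Cmpk2 (1.59 ± 0.41) rose too, while Isg15 (0.25 ± 0.26) was not called. The Oas3 and Cmpk2 calls were lost after thinning to 2000 UMIs, and that of Oasl2 was kept. Isg20, Tap1 and Psmb9 were lower. T cell receptor signaling genes were lower in 11 of 29 and higher in 3, among them the kinase Zap70 at -1.08 ± 0.11 and Txk at 1.53 ± 0.12. The T cell receptor genes Trac (-0.91 ± 0.09) and Trbc2 (-0.59 ± 0.10) were lower too. Both calls were kept in 8 of 8 fits without a library and 11 of 11 other alternatives. Of 28 cytokine and chemokine receptors and related genes, S1pr1 left out, 10 were higher, such as Il6ra (2.41 ± 0.33), and 8 lower, such as Cxcr6 at 29.1 to 194 CPM against 521 to 940 (-2.43 ± 0.26). Of 38 p53 targets 9 were higher and 7 lower, of 14 BCL2 family genes 2 and 5, of 28 immediate early and heat shock genes 8 and 2, and of 28 DNA damage response and repair genes 4 and 2. Over all genes 8.36% were called higher, 11.6% lower and 20% in either direction, near the 6 of 28 DNA damage response and repair genes. The counts of higher and lower genes moved with the scaling, since with RLE size factors 1024 were called higher and 937 lower (52.2% higher, gate genes included) against 831 and 1161 (41.7%) with TMM. Without the cells carrying UMIs of other cell types 1164 genes were called.

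Receptors of a single family were among the largest rises. Klra7, Klra6, Klra9 and Klra1 encode Ly49 receptors, which bind MHC class I and are best known from NK cells. Klra7 stood at 153 to 293 CPM in Tcf7 CD8 cells and at 0 to 12.8 in inhibitory-receptor cells (log2 5.09 ± 0.30, adjusted p = 3.05e-08, higher in 8 of 8 libraries). Klra6 (4.49 ± 0.32), Klra9 (4.48 ± 0.42) and Klra1 (4.26 ± 0.47) followed. These genes are related in sequence, and how well reads were told apart among them was not tested. Among all genes 8.36% were called higher and 11.6% lower. Of 10 NK cell markers tested 5 were higher and 2 lower, and Ncr1, the receptor that defines NK cells, was itself called higher (2.00 ± 0.59, adjusted p = 0.00683), with a UMI in 12 of 265 cells (4.53%) against 1.04% of inhibitory-receptor cells. That call was lost with DESeq2, without untreated replicate 2 and without the cells carrying UMIs of other cell types. Klrb1c, which encodes NK1.1, was higher as well (2.61 ± 0.26). Of 4 gamma delta markers tested, Tcrg-C4 (3.79 ± 0.40) and Tcrg-C1 (1.92 ± 0.34) were higher, while Trdc (2.73 ± 1.00, adjusted p = 0.113) and Tcrg-C2 (0.016 ± 0.17) were not called. Tcrg-C1 lost its call without those cells too. Of 3 NKT or MAIT markers tested, Klrb1c and Zbtb16 were higher, the latter on 5 UMIs (2.81 ± 1.16), a call lost with DESeq2. The part of such cells among the members was not tested.

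Cells with these receptors were then described as a group, which was chosen after the values were seen and carries no test. At least 1 UMI of the 4 Klra genes was found in 99 of 265 Tcf7 CD8 cells (37.4%), in 2.49% of inhibitory-receptor cells and in 3.18% of macrophages. By library these were 5 of 18, 15 of 35, 11 of 38 and 13 of 28 cells in untreated and 5 of 24, 13 of 42, 17 of 34 and 20 of 46 in irradiated replicates 1 to 4, so these cells were present in every library and the treatments overlapped. A UMI of at least 2 of the 4 genes was found in 60 of the 99.

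Ikzf2 (Helios) ran with the Ly49 receptors. It was at 889 to 1678 CPM over libraries in cells with a Ly49 UMI and at 21.0 to 262 in those without, higher in each of the 8 libraries, and had a UMI in 85 of 99 cells against 41 of 166. The CD8 co-receptor also differed. CD8 is usually a pair of an alpha chain, from Cd8a, and a beta chain, from Cd8b1, and pairs of alpha chains alone mark several innate-like and regulatory T cells. Cd8b1 was at 0 to 240 CPM in cells with a Ly49 UMI and at 554 to 987 without, and Cd8a at 210 to 315 against 348 to 630. No UMI of Cd8b1 was found in 60.6% of cells with a Ly49 UMI, 10.2% of those without and 1.94% of inhibitory-receptor cells. The gate asked for a UMI of either chain, so each of these cells had one of Cd8a by the rule.

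Several other transcripts followed this line. Il2rb, the receptor chain for IL-2 and IL-15, was at 932 CPM with a Ly49 UMI and 540 without, the signaling chain Fcer1g at 587 and 263, and Ly6c2 at 2227 and 1384. The tissue residence genes Cxcr6 and Itgae were at 36.1 and 13.9 CPM with a Ly49 UMI and at 196 and 98.6 without. S1pr1 was seen in 70.7% of cells with a Ly49 UMI and 72.9% of those without, and Trac in 81.8% and 84.9%, and only 1 of the 99 leaned naive. Markers of other lymphocytes were more frequent with a Ly49 UMI, with Tcrg-C2 in 34.3% of cells against 11.4% (107 and 29.4 CPM, higher in each of the 8 libraries) and Ncr1 in 8.08% against 2.41%. Cells with a Ly49 UMI were deeper, with a median of 7004 UMIs against 5759, and the part of depth in these shares was not tested.

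**Figure D3:**
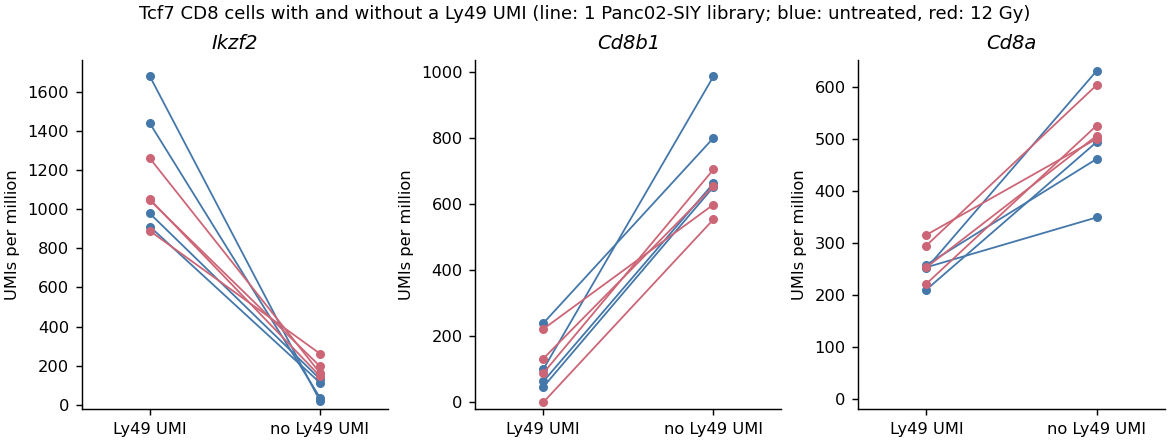
Levels of Ikzf2, Cd8b1 and Cd8a in UMIs per 1000000, in Tcf7 CD8 cells with at least 1 UMI of Klra1, Klra6, Klra7 or Klra9 (left of each panel) and without one (right), each line 1 Panc02-SIY library. Ikzf2 was higher and Cd8b1 and Cd8a lower in the cells with a Ly49 UMI in each of the 8 libraries.

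The third question was how the cells responded to radiation. Sums of 4 irradiated and 4 untreated Panc02-SIY libraries were compared in the same edgeR quasi-likelihood test without a block. Of 7104 genes tested, 35 (0.493%) were called higher and 32 (0.45%) lower after 12 Gy. The groups did not overlap for 33 (0.465%) of the former and 25 (0.352%) of the latter, while over all genes 2.74% lay apart upward and 2.73% downward. The total of 67 (0.943%) rested on 18 to 46 cells a library. It moved between 24 and 119 when single libraries were left out, lowest without irradiated replicate 1 (17 higher and 7 lower) and highest without irradiated replicate 2 (47 and 72). It was 22 after thinning to 2000 UMIs (6 higher and 16 lower, 9 of them among the 67), and fell to 8 (7 of them among the 67) without the 148 cells carrying UMIs of other cell types.

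Targets of p53 were among the largest rises. Of 30 tested, 9 rose (Phlda3, Bbc3, Polk, Ccng1, Fas, Ptp4a3, Trp53inp1, Bax and Ei24), none fell, 28 had a positive estimate, and the median log2 change was 1.14 against 0.01 over all genes. Among all genes 0.493% were called higher. Phlda3, an inhibitor of AKT signaling, had no UMI in untreated replicates 1 to 4 and 7, 19, 17 and 19 UMIs in irradiated ones, that is 49.3, 75.7, 87.0 and 72.5 CPM. Set against a floor of 3 UMIs over the untreated group, pooled Phlda3 was at least 21.9-fold higher after radiation (adjusted p = 1.42e-06). The cyclin gene Ccng1 was at 72.2, 56.4, 57.0 and 35.3 CPM in untreated and 225, 199, 215 and 175 in irradiated replicates 1 to 4 (log2 1.89 ± 0.25 SE, adjusted p = 6.20e-06). All irradiated libraries lay above all untreated ones for both genes. Without irradiated replicate 1, 6 of 30 targets were called, and without the cells carrying UMIs of other cell types 4 of 20, at medians of 1.24 and 1.08. DESeq2 called 5 of 30, where Phlda3, Bbc3, Polk and Fas were not called. After thinning to 2000 UMIs 1 of 7 was called, where Ccng1 and Bax lost their calls.

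Death genes were among them. Bax, which permeabilizes mitochondria, was at 86.7, 88.7, 91.2 and 132 CPM without and 275, 239, 225 and 278 CPM with radiation (1.34 ± 0.22, adjusted p = 0.000307). Bbc3, which encodes the BH3-only protein PUMA, was at 14.4, 0, 3.80 and 8.82 CPM without and 113, 19.9, 35.8 and 64.8 with radiation (3.12 ± 0.64, adjusted p = 0.00739). For both genes the groups were apart, but Bbc3 had 5 UMIs untreated. The death receptor Fas was at 14.4, 12.1, 26.6 and 13.2 CPM and then 84.5, 63.8, 15.4 and 76.3 (1.78 ± 0.47, adjusted p = 0.0720), with irradiated replicate 3 inside the untreated range, and its call was kept in only 2 of 8 fits that left out a library.

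The BCL2 family sets the balance of survival and death. Against 0.493% of all genes called higher, 3 of its 13 genes were (Bbc3, Bax and the survival gene Bcl2). None of the family was lower, and its median was 0.51. Without the cells carrying UMIs of other cell types 1 of 9 was higher, and after thinning to 2000 UMIs 0 of 5. Leaving out 1 library gave 2 to 4 higher and 0 to 1 lower, at medians of 0.24 to 0.55. Bcl2 was at 751, 802, 779 and 758 CPM without and 1296, 1024, 1162 and 996 with radiation (0.53 ± 0.14, adjusted p = 0.0804), apart in all libraries although the call was kept in 1 of 8 fits without a library. Cdkn1a, the cell cycle inhibitor p21, was at 7.22, 8.06, 57.0 and 26.5 CPM and then 261, 136, 138 and 408, apart in all libraries but not called (3.11 ± 0.64, adjusted p = 0.123). It was called in 4 of 8 fits without a library and under 6 of 10 other alternatives. The p53 targets Mdm2 (0.57 ± 0.36, adjusted p = 0.674) and Zmat3 (1.15 ± 0.47, adjusted p = 0.371) were not called either, and Eda2r was too low to test. Beyond the list, the protease inhibitor gene Serpine2 was at 0, 8.06, 0 and 0 CPM and then 113, 39.9, 133 and 103 (5.06 ± 0.64, adjusted p = 2.43e-06), resting on 2 untreated UMIs. Tnfsf8, the ligand of CD30, rose by 1.62 ± 0.29, and Exoc4 by 1.62 ± 0.27. The calls of Serpine2, Tnfsf8 and Exoc4 were lost without the cells carrying UMIs of other cell types, and that of Exoc4 also after thinning to 2000 UMIs.

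**Figure D4:**
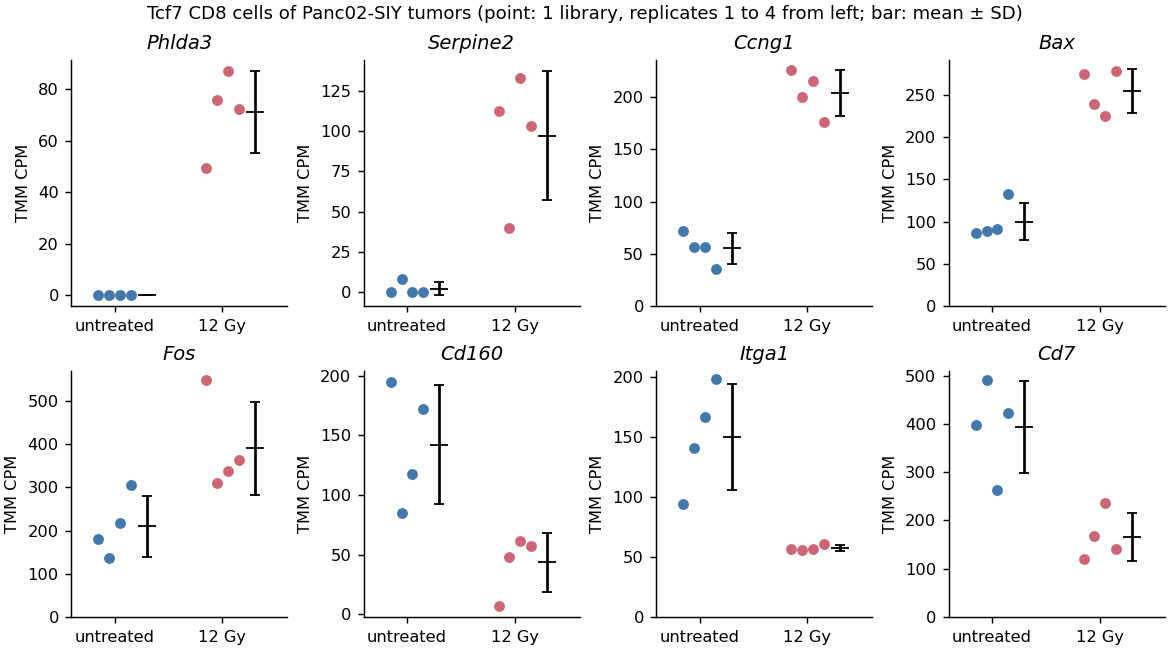
Levels of 8 genes in TMM CPM in Tcf7 CD8 cells of untreated and irradiated Panc02-SIY libraries, with 1 point a library (replicates 1 to 4 from left) and the mean ± SD of 4 beside it. The groups do not overlap for any of the 8 genes, with Phlda3, Serpine2, Ccng1, Bax and Fos higher and Cd160, Itga1 and Cd7 lower after 12 Gy.

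Promoters of these p53 targets are shown because the genes moved together. The sequence before each transcription start was taken from RefSeq (GRCm38.p6) and searched on both strands, which read alike for this palindrome, for the 10-base element of which a p53 consensus site holds a pair. The 250 bases before a start held at least 1 such element for 4 of the 7 called p53 targets with an entry and 3 of the 20 other risen genes with one, for 6.98% of the 5648 tested genes with an entry and for 8.20% of all 27025 genes of the RefSeq table. The fourth was Polk, at 1 of its 2 starts. A single element was found before Ccng1 at chr11:40755287-40755536 (minus strand), Bax at chr7:45466899-45467148 (minus strand) and Ei24 at chr9:36797335-36797584 (minus strand), in capitals below, starting 185, 201 and 10 bases before the start. No match was found in this window for Phlda3, and none of this shows binding.
Ccng1: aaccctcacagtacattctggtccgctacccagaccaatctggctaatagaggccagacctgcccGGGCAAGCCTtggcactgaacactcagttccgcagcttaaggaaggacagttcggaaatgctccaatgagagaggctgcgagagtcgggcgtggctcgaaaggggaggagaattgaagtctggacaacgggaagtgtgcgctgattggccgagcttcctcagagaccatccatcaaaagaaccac
Bax: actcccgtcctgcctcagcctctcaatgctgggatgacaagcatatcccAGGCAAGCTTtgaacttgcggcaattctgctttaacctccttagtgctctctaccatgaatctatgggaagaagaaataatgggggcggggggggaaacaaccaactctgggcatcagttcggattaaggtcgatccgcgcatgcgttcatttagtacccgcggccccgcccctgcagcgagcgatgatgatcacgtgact
Ei24: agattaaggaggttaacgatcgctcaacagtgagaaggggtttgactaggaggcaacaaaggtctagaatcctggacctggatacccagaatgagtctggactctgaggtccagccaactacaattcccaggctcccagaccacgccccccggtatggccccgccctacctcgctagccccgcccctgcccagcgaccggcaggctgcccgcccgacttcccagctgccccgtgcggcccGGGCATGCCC

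Immediate early genes are switched on within minutes of stimulation. Of 26 immediate early and heat shock genes 6 were higher (Egr1, Ier5, Fos, Cd69, Junb and Btg1), against 0.493% of all genes. None of the list was lower, and its median was 0.44. Egr1 was at 50.6, 56.4, 83.6 and 44.1 CPM without and 275, 104, 118 and 134 with radiation (1.32 ± 0.30, adjusted p = 0.0228), and Fos at 181, 137, 217 and 304 and then 549, 311, 338 and 362 (0.87 ± 0.21, adjusted p = 0.0478). The groups were apart for both, with irradiated replicate 1 highest. Without that library 0 of 26 genes were called, at a median of 0.34, without the cells carrying UMIs of other cell types 0 of 25, and without the 8 cells with 2 or more UMIs of S100a8 and S100a9 4 of 26. The part of neutrophil transcripts, which were also highest in irradiated replicate 1, was not tested beyond this.

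Among the genes called lower were several surface receptors. Cd160, an inhibitory and costimulatory receptor, was at 195, 84.6, 118 and 172 CPM in untreated and 7.04, 47.8, 61.4 and 57.2 CPM in irradiated replicates 1 to 4 (-1.56 ± 0.33, adjusted p = 0.0106). Itga1, the CD49a chain of the collagen receptor on resident memory cells, was at 93.9, 141, 167 and 198 CPM and then 56.3, 55.8, 56.3 and 61.0 (-1.41 ± 0.27, adjusted p = 0.00237). Cd7, which the naive list holds, was at 397, 492, 262 and 423 CPM and then 120, 167, 235 and 141 (-1.23 ± 0.21, adjusted p = 0.000581). The groups were apart for all 3 genes, and their calls were kept in 8 of 8 fits that left out a library. The Cd160 call was lost without the cells carrying UMIs of other cell types (adjusted p = 0.149), and those of Itga1 and Cd7 after thinning to 2000 UMIs (adjusted p = 0.645 and 0.288). Xcl1, which draws cross-presenting dendritic cells, fell by 0.93 on the log2 scale (SE 0.25, adjusted p = 0.0804) with overlapping groups, a call kept in 2 of 8 such fits. Other falls were the nucleotide enzyme Dut (-1.36 ± 0.34), the chromatin protein Hmgn2 (-1.13 ± 0.31), the exosome subunit Exosc7 (-2.11 ± 0.50) and the proteasome subunit Psma5 (-1.06 ± 0.25). Their calls were kept in 4, 1, 5 and 6 of 8 such fits.

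Naive and recirculating genes were higher in 2 of 27 (Txk and Bcl2) and lower in 1 (Cd7), against 0.943% of all genes called in either direction, with a median of 0.25. The Txk call was kept in 3 of 8 fits without a library, where the list's median ran from 0.10 to 0.41. None was higher without the cells carrying UMIs of other cell types (0 of 21), after thinning (0 of 20) or with at least 20 cells a library (0 of 28). An unadjusted p below 0.05 was found for 10 of these 27 genes and 14 of 38 memory and effector genes, against 9.59% of all genes, and 21 of the 27 estimates were positive and 25 of the 38 negative. Klf2 (0.58 ± 0.21, adjusted p = 0.290), Il7r, the IL-7 receptor (0.72 ± 0.21, adjusted p = 0.127), Lef1 (0.55 ± 0.26, adjusted p = 0.483) and Ccr7 (-0.76 ± 0.87, adjusted p = 0.875) were not called. Of 38 memory and effector genes only Xcl1 was called, with a median of -0.29, and Ccl5 (-0.35 ± 0.31), Cd44 (0.54 ± 0.23), Cxcr3 (-0.64 ± 0.30), Gzmk (-0.51 ± 0.63) and Ly6c2 (-0.39 ± 0.15) were not. Lower calls in this list numbered 0 to 5 when 1 library was left out, at medians of -0.34 to -0.14. They numbered 5 with the replicate block and 3 after thinning to 2000 UMIs, and none was higher in these fits.

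Interferon-stimulated genes gave no call. None of 54 tested passed in the edgeR quasi-likelihood test (4 had an unadjusted p below 0.05 against 9.59% of all genes), and none passed in DESeq2, with a median of 0.04. Isg15 changed by -0.42 ± 0.28. None of 21 DNA damage response and repair genes was called, with 1 at an unadjusted p below 0.05. Among all genes 0.493% were called higher and 0.45% lower. Of 28 receptors for cytokines and chemokines and related genes 2 were higher, Cxcr4 (0.91 ± 0.20, adjusted p = 0.0134) and the lymphotoxin chain Ltb (0.68 ± 0.17). Neither was called without the cells carrying UMIs of other cell types (0 of 22 genes) or after thinning to 2000 UMIs (0 of 15), and the Ltb call was kept in 4 of 8 fits without a library. Of 24 exhaustion and activation genes 2 were higher (Egr1, Cd69) and 2 lower (Cd160, Itga1).

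The last question was whether this response differed from that of the inhibitory-receptor CD8 cells. In that population 195 of 11255 genes (1.73%) were called, 102 (0.906%) higher and 93 (0.826%) lower after radiation, with 22 of 39 p53 targets higher and none lower and a median of 0.89. Its sums came from many more cells, so the counts of calls are not to be set against each other. Side by side, Ccng1 changed by 1.89 ± 0.25 in Tcf7 CD8 cells and 2.25 ± 0.11 in inhibitory-receptor cells, Bax by 1.34 ± 0.22 and 1.36 ± 0.11, Trp53inp1 by 1.39 ± 0.24 and 1.51 ± 0.15, and Bbc3 by 3.12 ± 0.64 and 3.30 ± 0.29. Tested as a difference of responses within libraries, none of 38 p53 targets was called in edgeR or in DESeq2, where edgeR called 0.0604% of all genes. An unadjusted p below 0.05 was found for 5 of the 38, against 5.2% of all genes. The difference was -0.05 for Bax, with an approximate (normal) 95% interval from -0.49 to 0.39, and -0.35 for Ccng1, from -0.88 to 0.19.

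**Figure D5:**
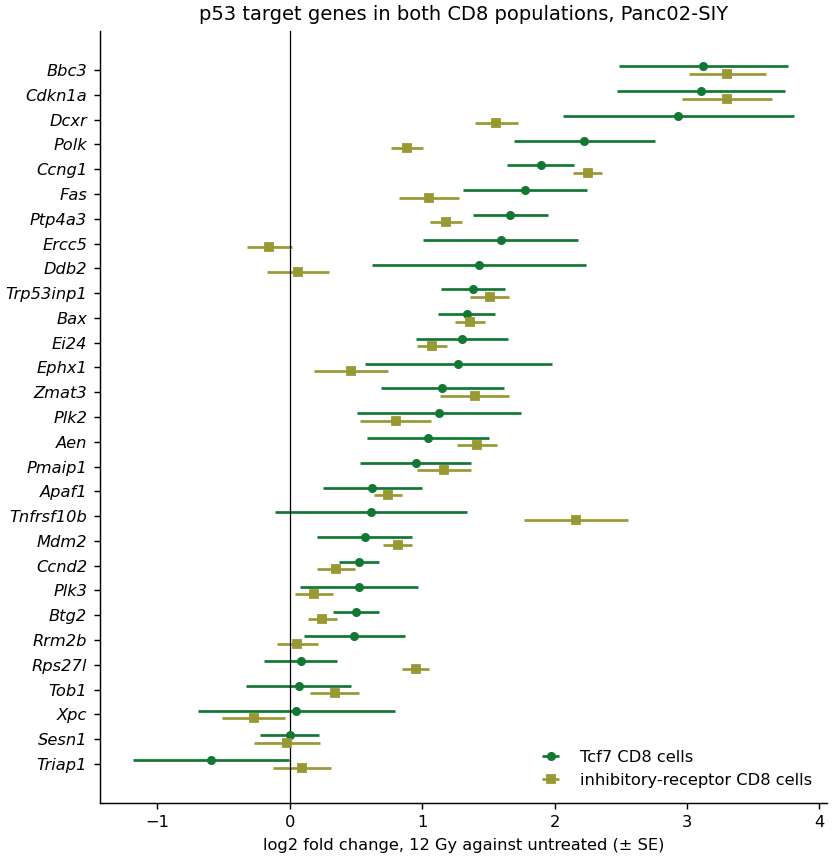
Log2 fold change after 12 Gy (x axis, ± SE) of 29 p53 target genes in Tcf7 CD8 cells (circles) and inhibitory-receptor CD8 cells (squares) of Panc02-SIY tumors, from 1 fit for each population. Phlda3 is not drawn because it had no UMI in untreated Tcf7 CD8 cells, and Bax lies at 1.34 and 1.36 in the 2 populations.

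Over all 9940 genes, 6 (0.0604%) were called for a difference of responses, 2 (0.0201%) higher and 4 (0.0402%) lower in Tcf7 CD8 cells, and 5.2% had an unadjusted p below 0.05. Itga1 changed by -1.41 in Tcf7 CD8 cells and -0.11 in inhibitory-receptor cells (difference -1.33 ± 0.26, adjusted p = 0.00307). Fos changed by 0.87 and -0.08 (difference 0.88 ± 0.20, adjusted p = 0.0685), and Nkg7, a granule protein of cytotoxic cells, by -0.43 and -0.04 (-0.40 ± 0.10, adjusted p = 0.0749). Irf8, a factor of myeloid cells and activated CD8 cells, changed by -0.99 and 0.09 (-1.13 ± 0.26, adjusted p = 0.0685). The ribosomal protein gene Rps19 rose in both, by 0.56 and 0.99 (-0.46 ± 0.08, adjusted p = 0.000228), and the pseudogene Olfr1369-ps1 was the remaining one. The number of calls was 1 with DESeq2 and between 3 and 22 when single libraries were left out, highest without irradiated replicate 1. None of the 6 genes was called under every alternative. DESeq2 called Rps19 alone among them, and Rps19 lost its call without the cells carrying UMIs of other cell types. Irf8 and Nkg7 were called in 4 of 8 fits without a library, Olfr1369-ps1 in 5 and Fos in 6, with Fos lost without irradiated replicate 1 or untreated replicate 2. Olfr1369-ps1 was too low to test in Tcf7 CD8 cells alone, and its difference of 4.01 turned to -1.24 without the cells carrying UMIs of other cell types.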

How the data were processed

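The authors sequenced 10x 3' libraries of sorted CD45+ cells and deposited UMI counts per barcode and gene, raw and not normalized. The submitters' processing notes name Cell Ranger 3.1.0, bcl2fastq 2.20.0 and mm10. Every barcode came from 1 of 16 library matrices, and the pooled matrix was not used. The gate, its thresholds, the gene lists and the comparisons were chosen with earlier results of these data known. No doublet caller was run, and cells with 2 or more UMIs of other cell types were left out as an alternative. In the shares they were taken out of the members only, while the denominators of CD8 T cells and of all barcodes kept them. Ly6c2, Ccr2, Cd74, G0s2 and Hdc were taken off that list of other cell types after the files were seen.

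Counts were summed over members of libraries with at least 10 of them and fitted with edgeR 4.0.16 in R 4.3.3 (filterByExpr with a minimum count of 3 and total of 15, TMM, robust quasi-likelihood tests, Benjamini-Hochberg over all genes tested). DESeq2 1.42.0 was an alternative. A standard error is the log2 fold change divided by the square root of F. Shares were compared with exact permutation tests over libraries, two-sided. Other alternatives changed scaling, filters, cell minimum, barcode rule and depth (2000 UMIs a cell), used replicate numbers as a block, or left out each library. Replicates are libraries that the labels number within a group. The fits were tested on simulated data.

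Genes named were those of the gate, 20 fixed genes, up to 10 largest rises and falls a comparison among called genes whose groups or paired differences did not overlap, up to 6 called genes a list, and the leading and defining genes of other cell types. Genes called in a list beyond 6, those set beside the Ly49 receptors, and the cells with Ly49 UMIs themselves were chosen after their values were seen. A few genes of that rule are not reported here.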

Additional observations from a re-analysis of the deposited data

Results flagged for a closer look

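Of 66 groups of 4 libraries examined for genes and 8 for shares, 8 were flagged for 1 library set apart relative to the group's range. For continuous values chance gives about 1 in 20 groups, a rate that was not tested for sparse counts with ties. The flag can mark a small gap where the other 3 libraries were nearly equal, as for irradiated Itga1. For Serpine2 the flag rested on 2 cells with a UMI in untreated replicate 2 and none in the other 3 libraries. The share of Tcf7 CD8 cells among CD8 T cells was 18.9% in irradiated Panc02-SIY replicate 1. Among untreated libraries, Bax was highest in replicate 4 (132 CPM), Fas in replicate 3 (26.6) and Serpine2 in replicate 2 (8.06), while Exoc4 was lowest in replicate 1 (43.3) and Tnfsf8 in replicate 4 (17.6). Among irradiated libraries, Itga1 was highest in replicate 4 (61.0) and Psma5 lowest in replicate 3 (56.3).

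The radiation response of 6 genes differed between Tcf7 CD8 cells and inhibitory-receptor CD8 cells in the edgeR test of the difference itself. On the log2 scale the difference was 0.88 for Fos, 4.01 for Olfr1369-ps1, -1.13 for Irf8, -1.33 for Itga1, -0.40 for Nkg7 and -0.46 for Rps19. Under DESeq2 only Rps19 of these 6 was called.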

How the results depend on the processing

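The number of genes called after radiation was 67. It was 112 without the filter on low counts, 37 with at least 20 cells a library, 8 without cells carrying UMIs of other cell types, 22 with cells thinned to 2000 UMIs and 37 at an adjusted p below 0.05. Leaving out 1 library gave 24 to 119, with 37, 32 and 41 without untreated replicates 1, 2 and 4 and 24, 119, 42 and 39 without irradiated replicates 1 to 4. The replicate block gave 128 calls, the 67 included, although the numbers did not pair the libraries (correlations of the deviations of same-numbered libraries 0.0149, 0.0005, 0.000749 and 0.0809). Of 1992 genes that differed between populations, 1164 were called without cells carrying UMIs of other types and 908 after thinning (1716 to 2096 without 1 library). The share of higher calls was 41.7%, against 52.2% with RLE factors, 53.2% with DESeq2, 51.3% at a minimum count of 10 and 22.0% after thinning. The 6 differences of responses became 12 with RLE factors, 1 with DESeq2, 20 without the filter, 2 at a minimum count of 10, 2 without cells of other-type UMIs, 21 without cells of S100a8 or S100a9 UMIs and 2 at an adjusted p below 0.05 (3 to 22 without 1 library: 3 without untreated replicate 2, 12 without untreated replicate 4, and 22, 18, 10 and 13 without irradiated replicates 1 to 4). The causes were not tested.

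Thinning turned the radiation differences in share of all barcodes to -0.378 points in Panc02-SIY and -0.108 in MC38, and that in naive-leaning cells to -2.15. Without thinning, leaving out 1 library gave -0.166 to 0.498 (-0.166 without untreated replicate 4, -0.0546 without irradiated replicate 1), 0.211 to 0.656 and 2.40 to 7.87. With cells of other-type UMIs taken out of the members only, the MC38 difference was 0, with no member left in either MC38 group. The same removal kept all CD8 T cells in the denominator. The share of Tcf7 CD8 cells among CD8 T cells in Panc02-SIY then differed by 3.07 points and passed (adjusted p = 0.0571, exact permutation test). With those cells kept it was 4.53 points, and 1.25 to 5.89 when 1 library was left out. After thinning this difference was 1.39 points and did not pass (adjusted p = 0.789, exact permutation test). MC38 minus Panc02-SIY was -1.33 untreated and -1.06 irradiated after thinning, and no longer passed. The unthinned differences of -1.68 and -1.47 ranged from -2.06 to -1.40 and from -1.69 to -1.20 when 1 library was left out, and no longer passed without any untreated MC38 library and without irradiated Panc02-SIY replicates 1 or 2.

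Among single genes, directions turned as follows. After radiation, Ccr7 became 0.74 without untreated replicate 3 (-1.12 to 0.74 over libraries) and Mdm2 -0.046 without irradiated replicate 4 (-0.046 to 0.75). Between populations after thinning, Cdkn1a became -0.041, Mdm2 0.27, Parp1 -0.84 and Phlda3 -2.50. Without cells of other-type UMIs Parp1 became -0.39 and Trp53 -0.14, and Isg15 became -0.014 without untreated replicate 3 (-0.014 to 0.39). For the difference of responses without cells of other-type UMIs, Bax became 0.38, Ccng1 0.69, Ccr7 1.66, Cdkn1a 6.97, Klf2 -0.033, Mdm2 1.05 and Olfr1369-ps1 -1.24. After thinning Bcl2 became -0.38, Cd44 -0.20, Ly6c2 -0.22, Phlda3 -1.36 and Zmat3 0.39, and with DESeq2 Ccr7 became 0.048. Leaving out 1 library gave -0.084 to 0.055 for Bax, -0.063 to 0.29 for Bcl2, -0.75 to 0.73 for Ccr7, -0.73 to 0.60 for Cdkn1a, -0.11 to 0.50 for Ly6c2 and -0.45 to 0.62 for Zmat3.

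Comparisons of expression in MC38 tumors and between tumors, and a fit over all 4 groups, were not run because no MC38 library held 10 members, nor 5. Counts of 135157 to 274452 member UMIs a library stood behind the radiation comparison in Panc02-SIY before any thinning or removal of cells.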
